A study of Mus musculus with 6 samples.

Results

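Epithelial cells of the gut are held together by tight junctions, adherens junctions and desmosomes and are coupled by gap junctions. The transcripts of 35 genes that encode parts of these structures were followed here in the small intestine of C57BL/6 mice at postnatal day 14. The genes were chosen by symbol from a list of junction components, and all 35 were found among the 24452 gene symbols of the files. They comprised 10 claudins, 5 other tight junction membrane proteins, 4 tight junction scaffolds, 5 cadherins and catenins of the adherens type, 6 desmosome components, 3 adhesion glycoproteins and 2 connexins. RNA-seq had been done on 3 libraries labelled wild type and 3 labelled Erk1/2 -/-, all from flash-frozen small intestine, and the title of the series asks what the ERK kinases do in intestinal development after birth. The labels name no promoter or Cre line behind the loss, no segment and no animal for a library. The p-values therefore cover the spread among the 6 libraries, which may be technical.

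Tight junctions seal the space between neighbouring epithelial cells near their apical surface. Their strands are built of claudins, which either close the path between cells or form pores for ions, with occludin and the related MARVEL proteins, and ZO proteins tie the strands to actin. Adherens junctions join cells through E-cadherin and its catenins, and desmosomes join them through desmosomal cadherins that plakoglobin, plakophilins and desmoplakin anchor to keratin filaments. Gap junctions are channels made of connexins.

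The values are normalised counts, that is gene counts rescaled per library by the authors and rounded, and where 3 values are given for a genotype they stand in the order of its numbered libraries. The libraries summed to between 13641468 and 14094100 normalised counts in wild type and between 14825845 and 17153570 in the labelled knockouts, and the 35 junction genes held 0.869% to 1.02% of these sums in wild type and 0.974% to 1.16% in the labelled knockouts. Mapk3, which encodes ERK1, was not called lower in the labelled knockouts. It had means of 2645 ± 582 in wild type and 2792 ± 544 in the labelled knockouts (SD, n = 3 each). These are totals over the whole gene without values for single exons. Directions are therefore given as those of the libraries labelled knockout. Labelled knockout 1 stood apart in its long transcripts. The median deviation from the gene mean among genes with at least 4923 bases of exon, minus that among genes with at most 2046, was -0.894 on the log2 scale in that library and -0.048 to 0.329 in the other 5. Cybrd1, an iron reductase of the proximal intestine, was at 402 in wild type 3 and 224 in labelled knockout 1, against 3087 to 9894 in the other 4 libraries. Of the 4 proximal markers, Gata4 and Slc40a1 were also lowest in wild type 3 and labelled knockout 1. Apoa4 was not: it was highest in labelled knockout 1 (1332120) and lowest in labelled knockout 2 (655615). The ileal gene Fabp6 was at 1947 in labelled knockout 1 and at 4 or less elsewhere. The ileal markers Slc51a and Slc51b were highest in labelled knockout 1 and wild type 3, and Slc10a2 was at 12 or less in each library. The part of tissue segment in the results was not tested.

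Of the 35 junction genes, 5 rose and 1 fell in the libraries labelled knockout (limma, adjusted p under 0.05 over 14686 genes). The genes that rose were the claudin genes Cldn3 and Cldn15, the scaffold gene Tjp3 and the plakophilin genes Pkp2 and Pkp3, and the gene that fell was Jam3. Among all genes tested, 8.79% were called, 4.85% higher and 3.94% lower. At an adjusted p under 0.1, 8 junction genes were higher and 1 lower, beside 10.3% and 9.06% of all genes. Of the 35, 31 passed the filter of at least 10 normalised counts in at least 3 libraries, and 25 of these were not called. Cldn1, Cldn6, Cldn10 and Cldn18 did not pass. The median log2 fold change of the 31 was 0.34, beside -0.01 for all genes tested. With library totals as the scaling, the medians were 0.17 and -0.19. In 15 of the 31 the values of the genotypes did not overlap, as in 37.6% of all genes tested. These 6 calls depended on single libraries. Without wild type 1, without wild type 2 or without labelled knockout 3, limma called 0 of the junction genes, with 11, 10 and 10 at an unadjusted p under 0.05. Those fits called 0.523%, 0.329% and 0.415% of all genes. Without labelled knockout 1, 11 junction genes were called higher and 1 lower, where 10.5% and 9.61% of all genes were. Without both that library and wild type 3, the counts were 15 and 3, beside 13.7% and 12.1% of all genes. The 3 lower were Gjb2, Jam3 and Cldn18, and Cldn18 passed that filter only through wild type 1 and 2. Without wild type 3, Cdh17, Ceacam1, Gjb1 and Pkp3 were called higher and Cldn18 lower, where 428 of 14929 genes were called. Cldn18 passed the filter of that fit only through wild type 1 and 2. Of the 6 called with all libraries, Pkp3 alone stayed called there. Without labelled knockout 2, Cldn3, Tjp3, Pkp2 and Pkp3 stayed called, where 646 of 14963 genes were called.

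**Figure D1:**
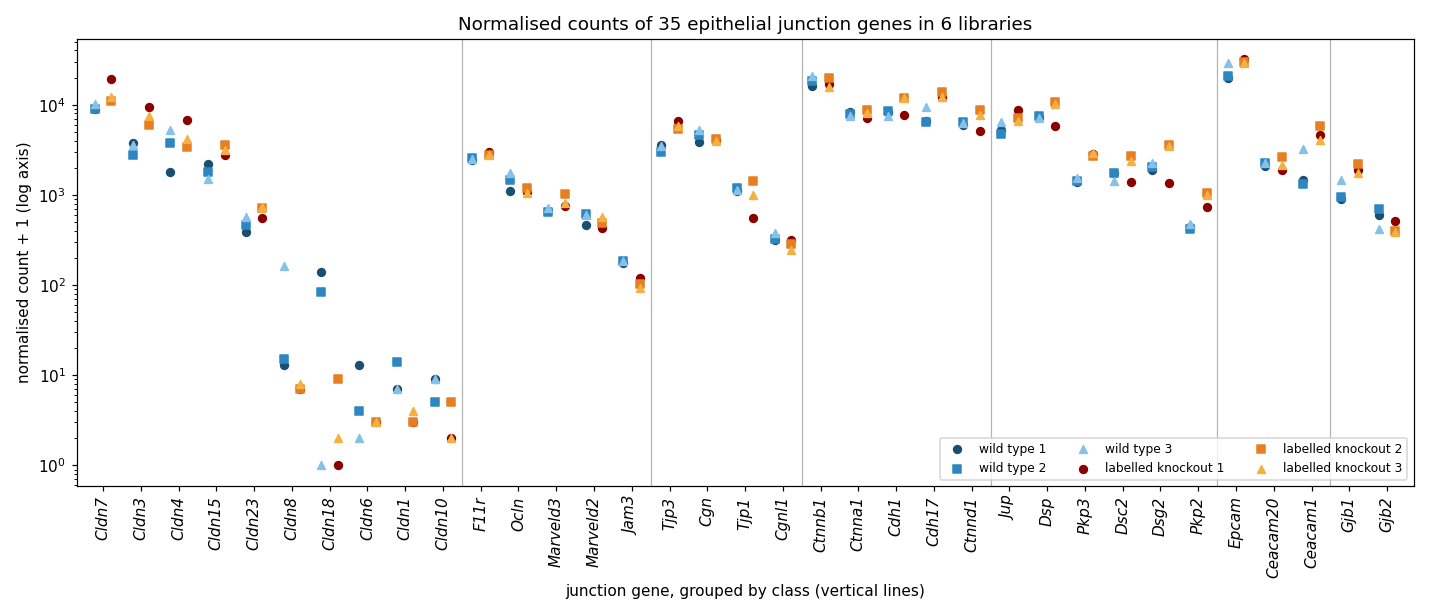
Normalised counts (plus 1, log axis) of the 35 junction genes, grouped by class, with 3 wild type libraries in blue and 3 labelled knockout libraries in red and orange. Pkp3, Tjp3 and Cldn3 lie higher in all 3 labelled knockouts, while Tjp1, Dsg2 and Dsp are lowest in labelled knockout 1.

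Markers of several other cell types differed between the genotypes as well. Among 8 epithelial marker genes that are not junction genes, Krt8, Krt19 and Elf3 rose and none fell, with a median log2 fold change of 0.54. Their summed level was 61769 to 74645 normalised counts in wild type and 120813 to 134790 in the labelled knockouts, and none of the 8 was at 0. Krt8 alone went from 16993 to 24339 in wild type to 45582 to 52404 in the labelled knockouts. Krt19 went from 7938 to 10533 to 21937 to 26842. The values of Krt18, Cdx2, Cdx1 and Hnf4a overlapped between the genotypes, and none of these was called. Villin (Vil1), a brush border protein, did not pass, with a log2 fold change of 0.44 ± 0.15 (adjusted p = 0.115, limma). Among 6 endothelial markers Pecam1, Cdh5 and Kdr fell and none rose, the sum being 4523 to 5583 in wild type and 3205 to 3354 in the labelled knockouts. Among 6 immune markers Ptprc, Cd79a and Adgre1 fell and none rose, with sums of 3239 to 5516 in wild type and 1725 to 5408 in the labelled knockouts. Of 4 Paneth cell markers Mmp7 and Mptx2 rose, with sums of 1253 to 6592 and 9871 to 14868. Most of these sums was Lyz1, which was not called, and Ang4 was at 0.35 ± 0.67. Of 5 goblet cell markers Spink4 rose, with sums of 41854 to 64098 and 81041 to 116657. The largest part of these sums was Fcgbp, which was not called, and Clca1 was at -0.05 ± 0.36. The 6 markers of smooth muscle had a median log2 fold change of -0.24, with sums of 35050 to 50521 in wild type and 27302 to 38680 in the labelled knockouts. The 6 of neurons and glia had a median of -0.49. Their sums went the other way, at 1247 to 2290 in wild type and 1699 to 3072 in the labelled knockouts, with Ret at 0.79 ± 0.43. None of these markers was called. None of the markers of these classes was at 0 in all libraries. In bulk tissue, more epithelial cells and more RNA of a gene per epithelial cell cannot be told apart, and the part of these markers in the junction results was not tested.

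Among the 10 claudins of the 35 genes, Cldn7, Cldn3, Cldn4 and Cldn15 made up most of the transcripts, and of these Cldn3 and Cldn15 rose. Per kilobase of exon, Cldn7, whose product binds EPCAM at the lateral membrane, was the most abundant of the 10 with 6342 normalised counts per kilobase in wild type. Cldn3, a barrier-forming claudin, followed with 2666, then Cldn4, also a sealing claudin, with 1988, and Cldn15, which forms cation pores that return sodium to the gut lumen, with 971. Cldn23 reached 255, and none of the other 5 was above 26.7.

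Cldn3 (chromosome 5, 134986214 to 134987472, plus strand; all positions are on GRCm38) measured 3762, 2774 and 3533 normalised counts in wild type and 9336, 5901 and 7501 in the labelled knockouts. Every labelled knockout was above every wild type. It rose by 1.16 ± 0.21 on the log2 scale (SE, adjusted p = 0.0273, limma), from 3356 ± 517 to 7579 ± 1719 (SD, n = 3 each). Cldn4 lies 39.3 kb away from Cldn3 on the other strand and had 1804, 3752 and 5275 in wild type and 6836, 3375 and 4208 in the labelled knockouts. Its groups overlapped, and its spread within the wild type group was 48.2% of the mean, against 15.4% for Cldn3. Its log2 fold change of 0.48 ± 0.43 did not pass (adjusted p = 0.482, limma).

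Cldn15 (chromosome 5, 136966616 to 136975858, plus strand) had 2230, 1812 and 1496 normalised counts in wild type and 2763, 3567 and 3185 in the labelled knockouts. The genotypes did not overlap, and it rose by 0.79 ± 0.19 on the log2 scale (adjusted p = 0.0486, limma). This call was near the threshold and was lost with library totals (0.62 ± 0.22, adjusted p = 0.113, limma) and with the length trend of each library removed (0.66 ± 0.23, adjusted p = 0.102, limma). Cldn7 had 8895, 8890 and 10317 in wild type and 19501, 11059 and 12309 in the labelled knockouts. All 3 labelled knockouts were above the wild types, with labelled knockout 1 far above the others, and the log2 fold change of 0.57 ± 0.24 did not pass (adjusted p = 0.163, limma). Cldn23 did not pass either, at 0.50 ± 0.20.

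The remaining claudins were scarce. Cldn8, a claudin of tight epithelia such as the distal nephron and colon, had 12, 14 and 163 in wild type and 6, 6 and 7 in the labelled knockouts. It passed the filter only through the wild type libraries, and it was not called. Over the 6 libraries it had a log2 fold change of -2.12 ± 0.94, which became -0.93 ± 0.38 once wild type 3 was left out (adjusted p = 0.179 and 0.195, limma). Of 5 colon markers, Car1, Hoxb13 and Hoxd13 were at 0 in all libraries and Hoxa13 had at most 1. The remaining one, Aqp8, had 2722, 2485 and 280 in wild type and 313, 368 and 573 in the labelled knockouts. The part of colon tissue in the Cldn8 values was not tested. Cldn18, a claudin of stomach and lung, had 138 and 82 in wild type 1 and 2 and 0, 0, 8 and 1 in the other 4 libraries in order. Stomach markers had the same order of libraries: the sum of 5 genes was 4439 and 2509 in wild type 1 and 2, 2 in wild type 3, and 7, 492 and 10 in the labelled knockouts. Their part in the Cldn18 values was not tested. The sum of 5 pancreas markers was 30345, 1932 and 2309 in wild type and 7601, 4282 and 68 in the labelled knockouts. In wild type 3 and labelled knockout 1 it was almost only Ctrb1, at 2309 and 7600. The part of pancreas tissue in the junction results was not tested. Cldn1, Cldn6 and Cldn10 had 13 normalised counts or fewer in each library. Cldn1, a claudin of skin and other barriers, had 6, 13 and 6 in wild type and 2, 2 and 3 in the labelled knockouts.

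As a share of the sum of these 10 claudins per kilobase, which leaves out Cldn2 and other claudins, Cldn3 held 21.8% ± 3.77 in wild type and 29.7% ± 1.93 in the labelled knockouts (SD, n = 3 each). Cldn7 held 51.8% ± 1.22 and 47.0% ± 3.10. Cldn4 held 15.9% ± 6.39 and 12.7% ± 1.53, and Cldn15 held 8.07% ± 2.30 and 8.68% ± 2.99. The shares of Cldn3 did not overlap between the genotypes, at 19.1% to 26.1% in wild type and 28.4% to 31.9% in the labelled knockouts, whereas those of Cldn15 did. With all 23 claudins of the files in the sum, a choice made after the values were seen, Cldn3 held 15.5% to 21.3% in wild type and 24.0% to 28.3% in the labelled knockouts, and Cldn2 held 14.0% ± 3.54 and 10.1% ± 5.14. The sum of the 10 itself was 11432.6, 11524.3 and 13863.6 per kilobase in wild type and 26137.3, 16298.6 and 18686.3 in the labelled knockouts.

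**Figure D2:**
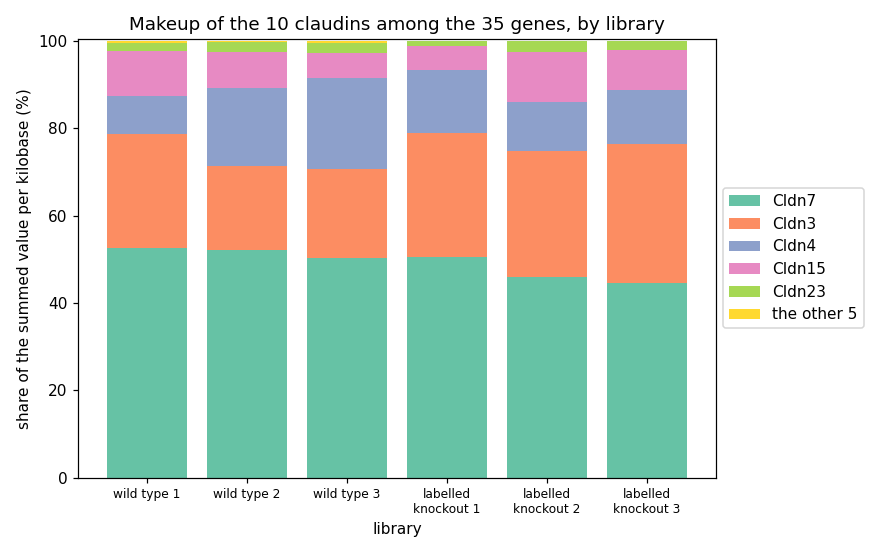
Share of each of the 10 claudins of the 35 genes in their summed normalised count per kilobase of exon (percent, y axis) in each of the 6 libraries (x axis), with the 5 scarcest of the 10 claudins pooled. Cldn7 takes 44.6% to 52.7% in the 6 libraries, and Cldn3 takes more in each labelled knockout than in any wild type.

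The scaffolds of the tight junction did not move together. Tjp3 encodes ZO-3, an epithelial ZO protein (chromosome 10, 81273207 to 81291581, minus strand). It had 3604, 2958 and 3509 normalised counts in wild type and 6623, 5325 and 5817 in the labelled knockouts. The lowest labelled knockout was well above the highest wild type, and Tjp3 rose by 0.82 ± 0.15 on the log2 scale (adjusted p = 0.0289, limma). Tjp1, which encodes ZO-1, had 1097, 1182 and 1123 in wild type and 554, 1413 and 992 in the labelled knockouts. Its wild type values were close together and labelled knockout 1 was the lowest of the 6 libraries. The log2 fold change was -0.30 ± 0.32 with all libraries (adjusted p = 0.555, limma) and 0.06 without labelled knockout 1. Cingulin (Cgn), which links ZO proteins to myosin, and its relative paracingulin (Cgnl1) did not pass, with log2 fold changes of -0.16 ± 0.16 and -0.27 ± 0.16.

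Among the other membrane proteins of the tight junction, only Jam3 was called of 5 tested. JAM-C, its product, is an adhesion molecule of endothelium and other cells as well as of epithelium (chromosome 9, 27097384 to 27155421, minus strand). Jam3 had 174, 185 and 183 in wild type and 119, 102 and 93 in the labelled knockouts, and the genotypes were apart. It fell by 0.79 on the log2 scale (SE 0.16, adjusted p = 0.0348, limma). F11r, which encodes JAM-A of epithelial tight junctions, had 2429, 2553 and 2503 in wild type and 2964, 2745 and 2780 in the labelled knockouts, with a log2 fold change of 0.18 ± 0.12 that did not pass (adjusted p = 0.346, limma). Its spread was small, 2.50% of the mean in wild type and 4.20% in the labelled knockouts. Occludin (Ocln), tricellulin (Marveld2) and Marveld3 did not pass, with log2 fold changes of -0.37 ± 0.19, -0.18 ± 0.18 and 0.34 ± 0.16.

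Of the 5 cadherins and catenins of the adherens type limma called 0, beside 8.79% of all genes tested, and 1 of them, Cdh17, had an unadjusted p under 0.05. Cdh17 encodes LI-cadherin of the intestine and had 6625, 6360 and 9441 in wild type and 12118, 13835 and 12180 in the labelled knockouts. The genotypes did not overlap, and the log2 fold change of 0.79 ± 0.20 just missed the threshold (adjusted p = 0.0529, limma). It was called without wild type 3 (0.97, adjusted p = 0.0439, limma) and without labelled knockout 1 (0.82, adjusted p = 0.0394, limma). Cdh1, encoding E-cadherin, had 8243, 8576 and 7595 in wild type and 7711, 11972 and 11812 in the labelled knockouts. Labelled knockout 1 fell among the wild types and the other two labelled knockouts above them. The log2 fold change was 0.34 ± 0.21 (adjusted p = 0.307, limma), and 0.55 without labelled knockout 1 (adjusted p = 0.033, limma). Ctnnb1, encoding beta-catenin, was the most abundant of these genes per kilobase and had 16274, 18440 and 20613 in wild type and 17205, 19950 and 15651 in the labelled knockouts. Its values overlapped, at -0.07 ± 0.18 (adjusted p = 0.819, limma). Alpha-catenin (Ctnna1) had 0.02 ± 0.15 and p120-catenin (Ctnnd1) 0.19 ± 0.21, and neither passed.

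In the desmosome class the plakophilin genes rose and the other 4 of 6 members did not pass, although all 6 log2 fold changes were positive. Pkp3 (chromosome 7, 141078218 to 141090510, plus strand), a plakophilin of epithelia, had 1383, 1412 and 1557 in wild type and 2824, 2699 and 2914 in the labelled knockouts. Every labelled knockout had at least 2699 and no wild type more than 1557. It rose by 0.96 ± 0.12 on the log2 scale, with the lowest adjusted p of the 31 (adjusted p = 0.0134, limma). Pkp2 (chromosome 16, 16213318 to 16272712, plus strand), the plakophilin of heart and simple epithelia, had 443, 414 and 477 in wild type and 743, 1052 and 1004 in the labelled knockouts. It rose by 1.05 ± 0.17, with labelled knockout 1 the lowest of its group but above all wild types (adjusted p = 0.021, limma).

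Jup, encoding plakoglobin, which serves both desmosomes and adherens junctions, had 5277, 4751 and 6423 in wild type and 8787, 7073 and 6620 in the labelled knockouts. The genotypes were apart by a small margin, and the log2 fold change of 0.45 ± 0.18 did not pass (adjusted p = 0.152, limma). Dsg2, the desmoglein of simple epithelia, had 1881, 2059 and 2261 in wild type and 1359, 3583 and 3463 in the labelled knockouts. Dsc2, its desmocollin partner, had 1739, 1741 and 1420 in wild type and 1402, 2691 and 2401 in the labelled knockouts. Dsp, encoding desmoplakin, had 7299, 7506 and 7175 in wild type and 5812, 10806 and 10081 in the labelled knockouts. In all 3 genes labelled knockout 1 was the lowest of the 6 libraries, and labelled knockouts 2 and 3 were the highest. With all libraries none passed, at log2 fold changes of 0.32 ± 0.37, 0.36 ± 0.26 and 0.23 ± 0.25. Without labelled knockout 1 all 3 were called, at 0.77, 0.64 and 0.51 (adjusted p = 0.013, 0.0257 and 0.0342, limma).

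In labelled knockout 1, most of the long junction transcripts were low and the short transcripts of Cldn3, Cldn4 and Cldn7 high, relative to labelled knockouts 2 and 3. These comparisons, and the limit of 4000 bases, were chosen after the values were seen. Of the 10 tested junction genes with at least 4000 bases of exon, 9 had a lower value in labelled knockout 1 than the mean of labelled knockouts 2 and 3 on the log2 scale, with a median difference of -0.64 and a lowest of -1.37, in Dsg2. The exception was Cgnl1, at 0.27, and Cgn, Ocln and Cdh17 were only slightly lower, at -0.002, -0.042 and -0.099. Of the 21 shorter ones 11 were lower and 10 higher, with a median of -0.04, and the largest positive difference was 0.86, in Cldn4. Spearman's rho between this difference and exon length was -0.546 across the 31 junction genes and -0.530 across 14590 genes of the table. Genes of 1 library are not independent, and no p is given. With the trend on exon length removed from each library, 7 junction genes were called higher and 1 lower, beside 7.29% and 5.53% of all genes. The 7 were Cldn3, Tjp3, Pkp2, Pkp3, Cdh17, Ceacam1 and Dsp.

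**Figure D3:**
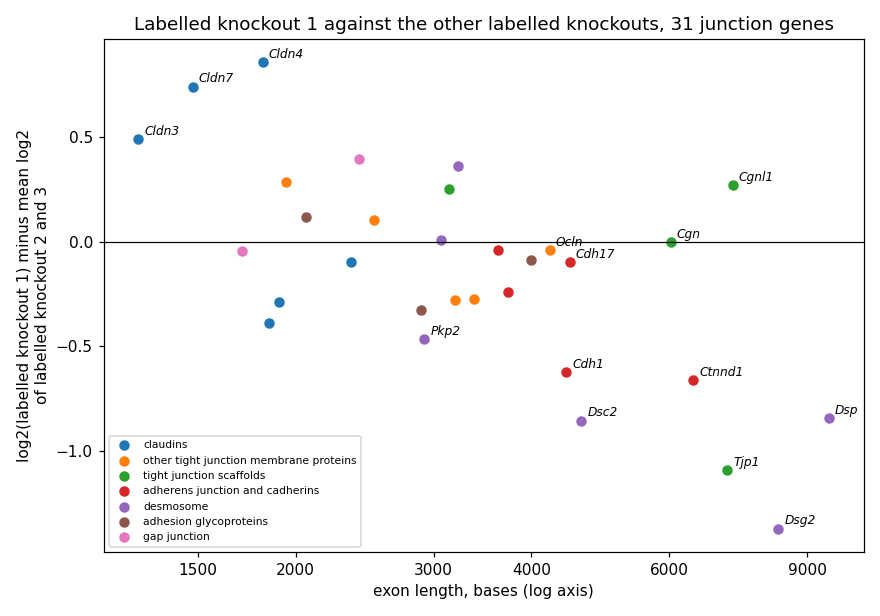
Difference between labelled knockout 1 and the mean of labelled knockouts 2 and 3 (log2, y axis) against exon length (bases, log axis) for the 31 junction genes tested, coloured by class. Cldn3, Cldn4 and Cldn7 lie above 0, and Dsg2, Tjp1, Dsc2 and Dsp lie lowest.

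**Figure D4:**
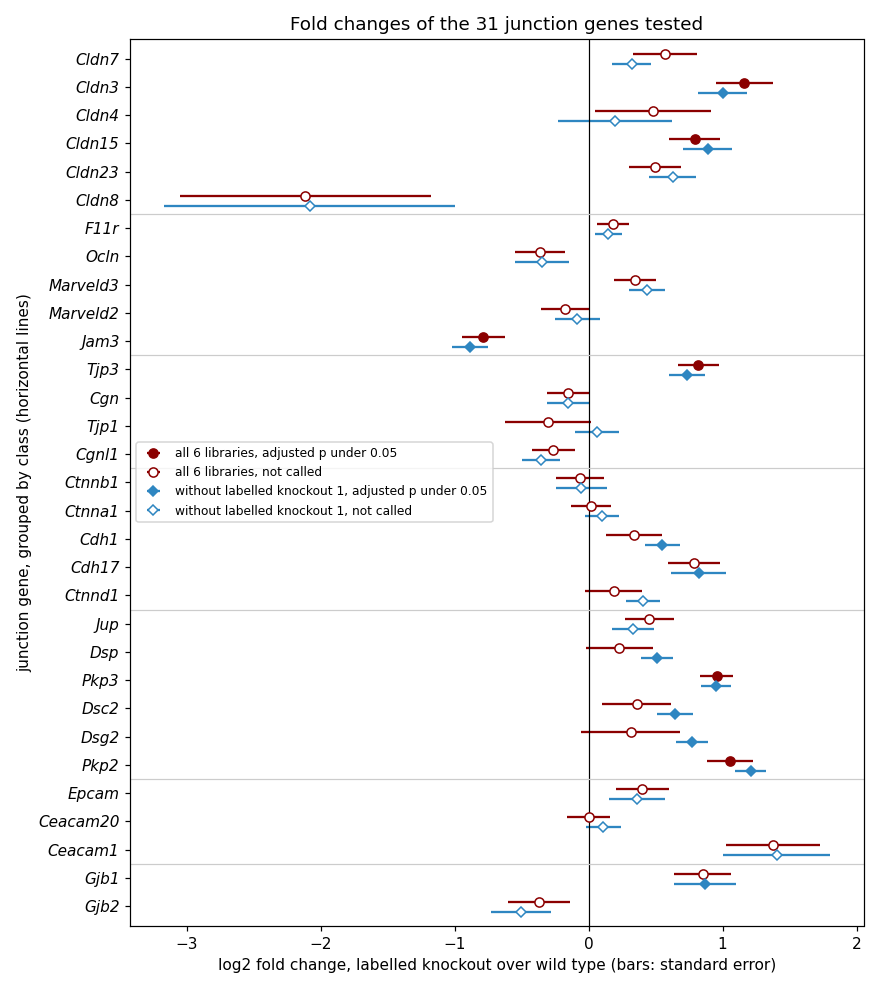
Log2 fold change of the labelled knockouts over wild type with its standard error for the 31 junction genes tested, by class, with all 6 libraries (circles) and without labelled knockout 1 (diamonds); filled symbols are called. With all libraries 6 are filled, and without labelled knockout 1 Cdh1, Cdh17, Dsg2, Dsc2, Dsp and Gjb1 are filled too.

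Among the adhesion glycoproteins, Epcam was the most abundant per kilobase of all 35 genes, with 11268 normalised counts per kilobase in wild type. EPCAM stabilises claudin-7 at the cell border. It had 20039, 20965 and 28736 in wild type and 32017, 29924 and 29038 in the labelled knockouts, apart only by the narrow gap to wild type 3, and its log2 fold change of 0.40 ± 0.20 did not pass (adjusted p = 0.218, limma). Ceacam1, an adhesion receptor of the apical and lateral membrane, had 1468, 1318 and 3233 in wild type and 4583, 5841 and 4072 in the labelled knockouts. Wild type 3 stood well above the other two, and the log2 fold change of 1.37 ± 0.35, the largest positive one of the 31, missed the threshold (adjusted p = 0.0566, limma). It was 1.78 without wild type 3 (adjusted p = 0.0228, limma). Ceacam2, a near copy 38.4 kb away, rose by 1.62 ± 0.37 on the log2 scale from a mean of 61.7 (adjusted p = 0.0442, limma). How reads that match both copies were handled is not stated, so the values of Ceacam1 and Ceacam2 are uncertain. Ceacam20, a microvillus protein, had 2113, 2251 and 2252 in wild type and 1894, 2652 and 2127 in the labelled knockouts, a log2 fold change of 0.00 ± 0.16.

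The fold changes of the connexin genes had opposite signs, and neither was called. Gjb1 (connexin 32; chromosome X, 101376378 to 101385629, plus strand) had 910, 950 and 1456 in wild type and 1910, 2207 and 1759 in the labelled knockouts. The genotypes were apart, and the log2 fold change of 0.85 ± 0.21 just missed the threshold (adjusted p = 0.0534, limma). It was called without wild type 3 (1.07, adjusted p = 0.0407, limma) and without labelled knockout 1 (0.87, adjusted p = 0.0455, limma). Gjb2 (connexin 26) had 593, 704 and 414 in wild type and 517, 401 and 384 in the labelled knockouts, with overlap and a log2 fold change of -0.37 ± 0.23 (adjusted p = 0.314, limma).

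Ratios within a library do not depend on how libraries were scaled. Of 12 pairs of junction genes that are relatives or binding partners, 5 had ratios that did not overlap between the genotypes. That is 41.7% of the pairs, beside 37.6% of single genes tested. With 3 libraries against 3, the smallest p an exact two-sided permutation test can give is 0.1, which all 5 had, and 0.24 after Benjamini-Hochberg adjustment over the 12. The log2 ratio of Gjb1 to Gjb2 was 0.617, 0.432 and 1.81 in wild type and 1.88, 2.46 and 2.19 in the labelled knockouts, so that wild type 3 was near the labelled knockouts. Jam3 to F11r was -3.78 ± 0.02 in wild type and -4.75 ± 0.13 in the labelled knockouts (SD, n = 3 each). Tjp3 to Tjp1 was 1.56 ± 0.21 and 2.68 ± 0.84, and its high value of 3.58 was that of labelled knockout 1. Jup to Ctnnb1 was -1.75 ± 0.18 and -1.24 ± 0.26. Ceacam20 to Ceacam1 was 0.26 ± 0.69 and -1.12 ± 0.17. The desmosomal cadherins had overlapping ratios, with Dsg2 to Dsc2 at 0.34 ± 0.29 and 0.30 ± 0.30, and so did Pkp3 to Pkp2 at 1.70 ± 0.06 and 1.61 ± 0.29.

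**Figure D5:**
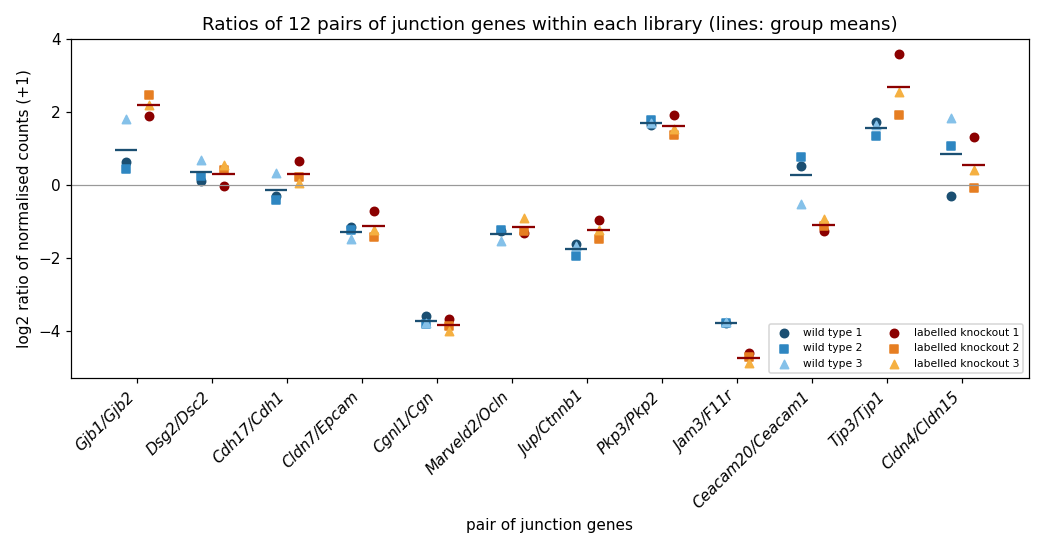
Log2 ratio of normalised counts (plus 1) for 12 pairs of junction genes in each library, with lines at the group means (wild type in blue, labelled knockout in red and orange). The ratios of Jam3 to F11r lie between -3.80 and -3.77 in wild type and lower in all 3 labelled knockouts.

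Of 90 further junction genes, 89 were in the files and 56 passed the filter, of which 3 rose and 4 fell, 12.5% of those tested beside 8.79% of all genes, with a median log2 fold change of -0.06. In 5 of the 6 fits without 1 library, all but that without labelled knockout 1, limma called 0 of them higher and 0 or 1 lower. Those 5 fits called 49 to 646 of all genes. Without labelled knockout 1 the counts were 7 and 10, beside 10.5% and 9.61% of all genes. With no filter or no trend they were 0 and 2, where 935 of 19373 and 1143 of 14686 genes were called. The genes that rose were Ceacam2, Ceacam18 (0.97 ± 0.22, adjusted p = 0.0438, limma) and Panx1, which encodes a membrane channel (0.89 ± 0.20, adjusted p = 0.0435, limma). Cdh5, the cadherin of endothelium, fell by 0.78 on the log2 scale (adjusted p = 0.0259, limma). Jam2, encoding the endothelial partner of JAM-C, fell by 0.96 (adjusted p = 0.0446, limma). Cdh11, a cadherin of mesenchyme, fell by 0.77 (adjusted p = 0.0498, limma), and Amotl2, which binds tight junction and cadherin complexes, fell by 0.91 (adjusted p = 0.0348, limma). Fibroblast markers numbered 6, and none was called, with sums of 42652 to 60259 in wild type and 30679 to 48300 in the labelled knockouts. Cldn2, the other main pore claudin of the gut, had 6750, 7028 and 4794 in wild type and 4188, 9049 and 6491 in the labelled knockouts, with a log2 fold change of 0.04 ± 0.30. Per kilobase it had 2034 in wild type, above Cldn4 and Cldn15. The highest mean normalised counts of the 90, not scaled by length, were those of the microvillus cadherins Cdhr5 and Cdhr2, at log2 fold changes of -0.01 ± 0.32 and -0.23 ± 0.16, neither called.

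Among 29 regulators of junction genes, 28 passed the filter, and 2 rose and none fell, which is 7.14% of those tested beside 8.79% of all genes. Esrp1, an epithelial splicing factor, rose by 0.83 ± 0.18 on the log2 scale (adjusted p = 0.0404, limma). St14, which encodes matriptase, a protease that cleaves EPCAM, rose by 0.72 ± 0.14 (adjusted p = 0.0296, limma). The repressors Zeb1 and Zeb2, which bind E-boxes in epithelial genes and are made mainly by mesenchymal cells, had 227, 282 and 233 and then 404, 442 and 422 in wild type. In the labelled knockouts they had 112, 171 and 153 and then 137, 297 and 241. Both were apart by genotype, but neither passed, at -0.78 ± 0.20 and -0.98 ± 0.28 (adjusted p = 0.0599 and 0.0725, limma). Snai1 and Snai2, which bind the same motif, were at 0.04 ± 0.22 and -0.41 ± 0.30.

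The E-box CAGGTG, to which Snail and ZEB repressors bind, was looked for on both strands (as CAGGTG or CACCTG) in promoter windows of RefSeq genes on GRCm38.p6, each from 250 bases before the transcript start to 50 after it. Windows were given for 24 of the 35 junction genes. Of these 24, 12 held the motif in at least 1 window, beside 22.6% of all genes with a window. A gene can have several windows. Counted by window, 15 of 35 held it, 42.9% beside 20.2% of all windows. The 12 were Cldn3, Cldn4, Cldn6, Cldn7, Ocln, Marveld2, F11r, Tjp3, Dsp, Epcam, Gjb1 and Gjb2. Of the called genes with a window, Cldn3 and Tjp3 held it and Cldn15 did not. The window of Cldn15 lay inside the annotated span of the gene, which begins at 136966616. Some E-boxes counted as before a start also lay inside the annotated span of their gene. Among them were those of Cldn7, whose span begins at 69964779, that of Gjb1, and the Tjp3 site 17 bases before its start. The Grainyhead-like motif AACCGGTT, which reads the same on both strands and does not overlap the E-box, was in 0 of the 24 and in 0.174% of all genes. A match describes the letters only. The E-boxes of the neighbours Cldn3 and Cldn4, of Tjp3 and of the abundant pair Cldn7 and Epcam are shown with 12 bases on either side, in the direction of transcription from 5′ to 3′ and with the E-box in capitals.
Cldn3, chr5:134986233-134986262, plus strand, E-box 31 bases after the start: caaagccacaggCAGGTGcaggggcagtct
Cldn4, chr5:134946931-134946960, minus strand, E-box 14 bases before the start: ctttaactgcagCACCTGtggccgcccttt
Cldn4, chr5:134946906-134946935, minus strand, E-box 11 bases after the start: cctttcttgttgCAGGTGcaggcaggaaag
Cldn7, chr11:69965312-69965341, plus strand, E-box 97 bases before the start: tttcttcctcttCACCTGgacgaggagggg
Cldn7, chr11:69965352-69965381, plus strand, E-box 57 bases before the start: agacttccggttCAGGTGagtgtcccttca
Tjp3, chr10:81291267-81291296, minus strand, E-box 17 bases before the start: cacaaaccctccCACCTGcaggccggcctc
Tjp3, chr10:81291672-81291701, minus strand, E-box 108 bases before the start: gtcacaaggggtCAGGTGtacagacaggga
Epcam, chr17:87635780-87635809, plus strand, E-box 187 bases before the start: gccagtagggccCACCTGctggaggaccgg
Epcam, chr17:87635948-87635977, plus strand, E-box 19 bases before the start: acccataaaaccCAGGTGtggaggagaagc
Cldn4, Cldn7 and Epcam each held a pair of E-boxes in the window of a single start, as did Ocln, whose sites are not shown. The E-boxes of Tjp3 lay in the windows of different annotated starts. Cldn3 held 1, within the transcribed part.

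The 250 bases before the start of the 3 called genes with a window are given in the same way, with any E-box in capitals. Tjp3 has 2 annotated starts, and each of its stretches holds 1 E-box, whereas those of Cldn3 and Cldn15 hold 0.
Cldn3, chr5:134985964-134986213, plus strand: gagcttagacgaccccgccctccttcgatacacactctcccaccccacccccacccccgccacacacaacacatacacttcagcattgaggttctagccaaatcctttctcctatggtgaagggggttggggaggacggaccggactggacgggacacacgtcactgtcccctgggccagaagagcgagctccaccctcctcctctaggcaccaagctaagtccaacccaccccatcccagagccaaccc
Cldn15, chr5:136967619-136967868, plus strand: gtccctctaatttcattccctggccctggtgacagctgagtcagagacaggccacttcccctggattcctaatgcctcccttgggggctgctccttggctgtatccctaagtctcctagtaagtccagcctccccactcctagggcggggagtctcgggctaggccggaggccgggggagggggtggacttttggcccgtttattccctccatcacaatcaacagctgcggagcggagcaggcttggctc
Tjp3, chr10:81291582-81291831, minus strand: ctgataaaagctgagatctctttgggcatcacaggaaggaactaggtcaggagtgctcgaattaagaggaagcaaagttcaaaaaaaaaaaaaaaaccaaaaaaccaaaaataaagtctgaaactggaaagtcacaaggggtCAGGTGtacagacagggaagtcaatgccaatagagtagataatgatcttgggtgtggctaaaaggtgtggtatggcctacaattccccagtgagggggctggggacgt
Tjp3, chr10:81291268-81291517, minus strand: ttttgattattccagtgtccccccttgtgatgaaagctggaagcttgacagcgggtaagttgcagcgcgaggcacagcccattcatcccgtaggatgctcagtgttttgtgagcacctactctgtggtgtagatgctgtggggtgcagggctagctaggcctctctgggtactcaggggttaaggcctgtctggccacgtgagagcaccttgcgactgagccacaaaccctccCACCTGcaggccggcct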

How the data were processed

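The authors deposited, for each of 6 RNA-seq libraries (3 labelled wild type, 3 labelled Erk1/2 -/-, grouped by sample title), 1 score for every gene symbol, in whole numbers that look like rounded counts after rescaling of each library. Per the submitters' processing notes, TopHat2 2.1.0, HTSeq 0.6.0, DESeq2 and build mm10 were used. No source used here names the annotation, the strand setting or the handling of reads that match overlapping or nearly identical genes. The values of such genes are therefore uncertain. Reads behind single values are unknown, so no counting intervals are given.

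The members, lists, tests and thresholds were chosen with earlier results of these data known. limma 3.58.1 (R 4.3.3) with an intensity trend was run on log2(normalised count + 1) for the 14686 genes that reached 10 in 3 or more libraries, genotype being the only term, two-sided, with Benjamini-Hochberg adjustment over all of them. Fold changes on this scale understate changes of low genes. Where a library was left out, the filter asked for as many libraries as the smaller group held. Values in all libraries are given for called genes, for the most abundant gene per kilobase and the largest fold change of each class, and for others chosen after their values were seen. Exon lengths and positions came from GENCODE vM21 (GRCm38), which matched 24047 of 24452 symbols. The fit was tested on simulated data. The values of 1 gene are not reported here.

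The labels do not say whether replicate numbers pair the samples. Deviations from the group means correlated at -0.373, 0.302 and -0.161 for numbers 1, 2 and 3, and at -0.438 to 0.412 for unlike numbers. Such correlations cannot settle whether the samples were paired, since the deviations of 3 libraries sum to 0 in each group. Alternatives changed pseudocount, filter, scaling, prior, threshold, block and the libraries used, and removal of each library's trend on exon length (lowess) was added after seeing the data.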

Additional observations from a re-analysis of the deposited data

How the results depend on the processing

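The counts of 5 junction genes higher and 1 lower were 5 and 1 with pseudocounts of 0.5 and 5, a mean of at least 20 as the filter and a robust prior. They were 4 and 1 with no filter, library totals, upper-quartile scaling and no trend, where Cldn15 was lost. Upper-quartile scaling and library totals moved the higher share of all calls from 55.2% to 41.1% and 29.7%. At an adjusted p under 0.1 there were 8 higher and 1 lower, beside 10.3% and 9.06% of all genes. Leaving out 1 library gave 0 to 11 higher and 0 to 1 lower junction genes, and for the further junction genes 0 to 7 higher and 0 to 10 lower. These fits called 49 to 3008 genes in all. Without wild type 3 and labelled knockout 1 together, 15 and 3 junction genes and 13 and 11 further ones were called. Of all genes, 13.7% were called higher there and 12.1% lower. The 3 lower junction genes included Cldn18, which passed that filter only through wild type 1 and 2. Among the further junction genes, the counts of 3 higher and 4 lower became 0 and 2 with no filter and 0 and 2 with no trend. Those fits called 935 of 19373 and 1143 of 14686 genes. With the length trend removed 5 were higher, beside 7.29% of all genes. At an adjusted p under 0.1, 7 were higher, beside 10.3% of all genes. With the replicate number as a block, limma called 0 junction genes either way, with 11 at an unadjusted p under 0.05, and 0 of the further ones. That fit called 64 genes in all, and whether the numbers pair the samples is not known. No paired permutation test of the ratios could pass 0.05 with 3 pairs.

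Of the fold changes and ratios tested, 9 changed sign in some setting, 5 genes and 4 ratios, none of them called. Leaving out 1 library in turn (6 fits), Tjp1 was -0.612 to 0.063, and it was 0.056 without wild type 3 and labelled knockout 1, and Cgn was 0.042 with the length trend removed. Ctnna1 was -0.157 with library totals and -0.063 with the upper quartile, and -0.051 to 0.098 over the 6. Ctnnb1 was 0.029 without wild type 3 and labelled knockout 1, and -0.162 to 0.016 over the 6. Ceacam20 was 0.123 without both, and -0.135 to 0.108 over the 6. Without 1 library, the log2 ratio difference ran from -0.158 to 0.129 for Dsg2 to Dsc2, from -0.041 to 0.319 for Cldn7 to Epcam, from -0.257 to 0.027 for Pkp3 to Pkp2 and from -0.891 to 0.171 for Cldn4 to Cldn15. The cause of these changes was not tested.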
